A study of Homo sapiens with 8 samples.

Results

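The cyclin-dependent kinase inhibitor genes CDKN1A, CDKN1B, CDKN1C, CDKN2A, CDKN2B, CDKN2C and CDKN2D were followed in maps of acetylated histone H3 lysine 27 (H3K27ac), a mark of active promoters and enhancers. These are 7 of the 20007 protein-coding genes of GENCODE release 44, and they were chosen by name. All H3K27ac peaks in each gene body and 50 kb on either side, in hg38 coordinates, were taken peak by peak and library by library. All 7 genes had a peak in this window in at least 1 library, as did 15184 of all protein-coding genes. The cells were pancreatic progenitors (PPs) made from the established human embryonic stem cell line MEL1, which in this study carried GFP at the insulin gene (MEL1 INS GFP/W), and cultured in EF6, a DMEM and B27 medium with EGF, bFGF and the TGFβ inhibitor 616452. The control group received DMSO. The treated group received I-BET151, which blocks the bromodomains that BET proteins use to bind acetylated lysines, at 1 μM for 7 days. Each group had 2 H3K27ac libraries, each with its own peak list, and 2 input libraries of chromatin without immunoprecipitation that had no list and were not analysed here. All libraries came from this 1 line. The labels do not state whether replicates came from separate cultures, so any spread between them may be technical. In such bulk material, fewer cells carrying a mark and less of the mark per cell cannot be told apart.

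The lists held 12312 to 14248 peaks. Their depth after duplicate removal, estimated from the lists and not counted, was 7.76 to 9.84 M ChIP reads, the deepest library being DMSO replicate 2. The PP markers PDX1, NKX6-1, SOX9, ONECUT1, FOXA2, GATA4, GATA6 and MNX1 each had a peak within 3 kb of a start in all 4 libraries. The endocrine markers (0 of 5) and the pluripotency markers (0 of 3) had none there in any library (the endocrine INS had peaks elsewhere in its window), and the hepatic ALB and AFP and the mesenchymal TWIST1 had no peak in their windows at all. The hepatic APOA1, the intestinal CDX2 and the mesenchymal VIM and PDGFRB had start peaks in all 4 libraries. Covered length, the sum of peak lengths in a gene's window, was larger in both I-BET151 libraries for NKX6-1, SOX9, ONECUT1, FOXA2, GATA4 and MNX1 and overlapped for PDX1 and GATA6. For INS, the only endocrine marker with a peak in its window, it was 6.37 to 6.63 kb in DMSO, against 8.08 to 8.52 kb with I-BET151. For APOA1 it was 4.12 to 4.24 kb and 1.96 to 2.57 kb. The mesenchymal markers summed to 6.17 to 7.01 kb and 4.75 to 4.81 kb, with COL1A1 and PDGFRB lower in both I-BET151 libraries and VIM higher (2.55 and 2.64 kb, against 2.87 and 2.93 kb). The part of such differences in the values given here for the CDKN genes was not tested.

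Cyclin-dependent kinases (CDKs), switched on by cyclins, phosphorylate the retinoblastoma protein RB, release E2F factors and so drive cells from G1 into DNA replication. Inhibitors of the Cip/Kip family, p21 (CDKN1A), p27 (CDKN1B) and p57 (CDKN1C), bind complexes of cyclins with several CDKs. Inhibitors of the INK4 family, p16 (CDKN2A), p15 (CDKN2B), p18 (CDKN2C) and p19 (CDKN2D), bind CDK4 and CDK6 and keep the D-type cyclins off them. CDKN2A also encodes ARF from a separate first exon, a protein that restrains MDM2 and thereby stabilises p53, which in turn activates CDKN1A. CDKN1C is an imprinted gene expressed mainly from the maternal copy, and p57 is known for its part in cell cycle exit during pancreas development.

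The sequences below belong to the elements on which the comparisons turn. Matches to any of the searched motifs are in capitals. The first 3 are windows of 201 bases of the hg38 plus strand at CDKN1A, and they show the distal peak listed only in DMSO (chr6:36643294-36643494), the upstream peak shared by all libraries (chr6:36667262-36667462), and the place in the first part of the gene where the DMSO peak was interrupted in both I-BET151 libraries (chr6:36679344-36679544).
CDKN1A distal peak: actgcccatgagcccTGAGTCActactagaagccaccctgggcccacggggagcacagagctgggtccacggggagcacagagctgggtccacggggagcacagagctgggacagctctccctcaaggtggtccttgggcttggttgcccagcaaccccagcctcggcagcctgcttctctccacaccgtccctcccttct
CDKN1A upstream shared peak: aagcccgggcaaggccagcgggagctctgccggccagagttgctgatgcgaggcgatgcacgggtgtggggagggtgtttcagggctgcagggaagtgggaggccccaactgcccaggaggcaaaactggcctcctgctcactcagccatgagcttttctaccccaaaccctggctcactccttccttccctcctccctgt
CDKN1A interrupted place: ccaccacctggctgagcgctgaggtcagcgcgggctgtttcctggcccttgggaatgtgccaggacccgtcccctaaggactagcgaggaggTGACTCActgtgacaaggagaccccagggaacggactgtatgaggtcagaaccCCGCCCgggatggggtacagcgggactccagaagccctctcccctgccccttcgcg

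The other sequences are the 250 bases before the starts of CDKN1B (chr12:12717118-12717367, plus strand), of the ARF transcript of CDKN2A (chr9:21995325-21995574, minus strand) and of CDKN2B (chr9:22009306-22009555, minus strand), taken from RefSeq (GRCh38.p14) and written 5′ to 3′. They are shown because CDKN1B had the strongest start peak of the family, and because the peaks next to the ARF and CDKN2B starts, which are neighbours, differed between libraries in different ways.
CDKN1B promoter: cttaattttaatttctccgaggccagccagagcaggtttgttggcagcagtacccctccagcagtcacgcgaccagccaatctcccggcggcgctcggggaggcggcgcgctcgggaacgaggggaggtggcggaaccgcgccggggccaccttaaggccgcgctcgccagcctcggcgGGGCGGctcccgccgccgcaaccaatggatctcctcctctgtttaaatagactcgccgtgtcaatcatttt
CDKN2A ARF promoter: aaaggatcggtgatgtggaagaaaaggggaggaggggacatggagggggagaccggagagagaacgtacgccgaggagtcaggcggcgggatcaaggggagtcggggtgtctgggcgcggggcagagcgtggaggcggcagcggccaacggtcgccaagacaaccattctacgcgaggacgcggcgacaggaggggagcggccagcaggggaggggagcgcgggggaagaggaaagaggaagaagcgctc
CDKN2B promoter: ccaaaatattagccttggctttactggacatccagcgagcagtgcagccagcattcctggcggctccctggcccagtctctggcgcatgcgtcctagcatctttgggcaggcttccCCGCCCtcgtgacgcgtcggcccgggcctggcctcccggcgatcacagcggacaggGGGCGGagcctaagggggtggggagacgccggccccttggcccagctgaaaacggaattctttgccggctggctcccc

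Both strands were searched for motifs known to be bound by promoter and enhancer factors, namely the SP1 motif GGGCGG, the E-box CACGTG, the AP-1 motif TGANTCA, the E2F motifs TTTGGCGC and also TTTCCCGC, the FOX motif TGTTTAC, the RBPJ motif GTGGGAA, the core promoter motif TATAAA and the p53 response element. On the minus strand the SP1 motif can overlap the latter E2F motif. RefSeq held promoters for 6 of the members, 9 promoters in all, and these did not include CDKN1C. GGGCGG was in 7 of the 9, against 42.6% of 35114 promoters of the same length, and CACGTG was in 2, both of CDKN2C, against 6.35%. The promoter of CDKN1A held 4 matches to GGGCGG, that of CDKN1B 1, that of CDKN2B 2, and the ARF promoter 0. None of the other motifs matched in the 9 promoters, which says only that these letters were not in the 250 bases. TGANTCA occurred in the CDKN1A distal peak, centred 82 bp before its summit, and again at the interrupted place, within the gap of both I-BET151 libraries. It did not occur at the summit of the upstream shared peak. Of windows of the same length at the summits of all 15752 regions of the series, 2.30% held TGANTCA, as did 3.99% of the 1355 windows at lost regions. It was in 3 of the 68 windows at gaps of all regions interrupted in the same way (4.41%). A match is a description of sequence, and binding of AP-1 was not measured.

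To ask how much acetylated chromatin surrounded each gene, the peak lengths in its window were added up. I-BET151 libraries had less around CDKN1A and CDKN1C and more around CDKN2A and CDKN2B, and the groups overlapped for CDKN1B, CDKN2C and CDKN2D. CDKN2A and CDKN2B lie side by side and their windows held the same peaks, so they count as 1 observation. Over all 15184 genes with a peak in the window, both I-BET151 libraries were above both DMSO libraries for 12.5% and below them for 44.4%. Of the members 2 of 7 were above and 2 of 7 below, which with the shared locus taken once is 1 and 2 of 6. The median difference, I-BET151 minus DMSO, was then 0.0543 kb (0.127 kb over all 7 genes), and over all genes it was −0.0940 kb. The difference at each gene was given a two-sided p by exact permutation of the group labels. With 4 libraries there are 6 assignments and the smallest possible p is 0.33, so no difference here can pass 0.05.

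**Figure D1:**
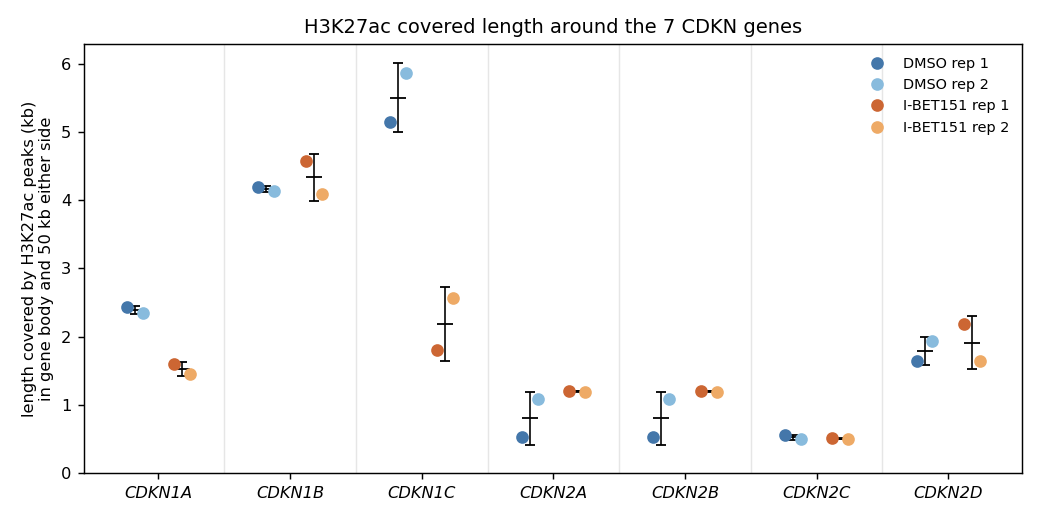
Length covered by H3K27ac peaks (kb, y axis) in the gene body and 50 kb either side of each gene (x axis), 1 point per library, with black bars for the group mean ± SD (n = 2). The I-BET151 points lie below the DMSO points for CDKN1A and CDKN1C and above them for CDKN2A and CDKN2B, which share their peaks.

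CDKN1A, the p53 target that encodes p21, was covered over 2.44 and 2.35 kb in DMSO replicates 1 and 2 and over 1.60 and 1.45 kb in I-BET151 replicates 1 and 2. Both treated libraries were below both controls. The means were 2.39 ± 0.06 kb and 1.52 ± 0.10 kb (SD, n = 2 each), a difference of −0.871 kb (exact permutation p = 0.33). CDKN1C was covered over 5.15 and 5.86 kb in DMSO, against 1.80 and 2.57 kb with I-BET151. This was the widest gap in the family, with means of 5.51 ± 0.51 and 2.18 ± 0.55 kb and a difference of −3.32 kb (exact permutation p = 0.33). It depended on the window, being −0.0690 kb with 10 kb either side and −0.0640 kb over the gene body alone. CDKN2A and CDKN2B were covered over 0.525 and 1.08 kb in DMSO, against 1.20 and 1.19 kb with I-BET151, with means of 0.802 ± 0.392 and 1.20 ± 0.01 kb, a difference of 0.395 kb (exact permutation p = 0.33). DMSO replicate 2 lay close to the treated libraries here and DMSO replicate 1 stood apart, so the difference was 0.118 kb without DMSO replicate 1 and 0.672 kb without DMSO replicate 2.

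CDKN1B, which encodes the quiescence-associated inhibitor p27, had 4.20 and 4.14 kb in DMSO, against 4.58 and 4.10 kb with I-BET151, a difference of 0.171 kb (means 4.17 ± 0.04 and 4.34 ± 0.34 kb, exact permutation p = 1.0). CDKN2C had 0.550 and 0.495 kb in DMSO, against 0.506 and 0.503 kb with I-BET151, a difference of −0.0180 kb (exact permutation p = 1.0). CDKN2D had 1.64 and 1.93 kb in DMSO, against 2.19 and 1.64 kb with I-BET151, a difference of 0.127 kb (exact permutation p = 1.0). For these 3 genes the difference was within the spread between replicates.

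In DMSO, the order of covered length was CDKN1C, CDKN1B, CDKN1A, CDKN2D, then CDKN2A with CDKN2B, and CDKN2C. Neighbours in this order did not overlap, except that CDKN2C at 0.495 to 0.550 kb lay within reach of CDKN2A and CDKN2B, whose lower library had 0.525 kb. In I-BET151 the order was CDKN1B, CDKN1C, CDKN2D, CDKN1A, then CDKN2A with CDKN2B, and CDKN2C, and CDKN1C (1.80 to 2.57 kb) overlapped CDKN2D (1.64 to 2.19 kb). In DMSO libraries 93.7 and 95.4% of genes had less covered length than CDKN1C, and in I-BET151 libraries 64.3 and 81.2% did. For CDKN1A these shares were 73.3 and 71.9% in DMSO, against 59.1 and 56.5% with I-BET151.

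The peaks behind these lengths were then merged where they shared at least 1 bp. The windows held 61 listed peaks in 19 distinct regions, of which 8 were within 3 kb of a start of the member itself. All 4 libraries called 11 of the regions. Of the others, 4 were called in both DMSO and in neither I-BET151 library (lost), 0 were called in both I-BET151 and in neither DMSO library (gained), and 4 had other patterns. Over the series 8.60% of regions were lost and 2.81% gained. Of the 4 lost regions, 1 was upstream of CDKN1A and 3 were in the window of CDKN1C. When peaks within 500 bp of each other were merged, the lost regions numbered 3, and the share over the series is not given for that setting. A peak that is not listed in a library fell short of the caller's threshold, and acetylation below it may still be there. Within the 11 shared regions, both I-BET151 libraries covered fewer bp than both DMSO libraries in 3, against 33.3% of all shared regions, and more bp in 1, against 16.0%.

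**Figure D2:**
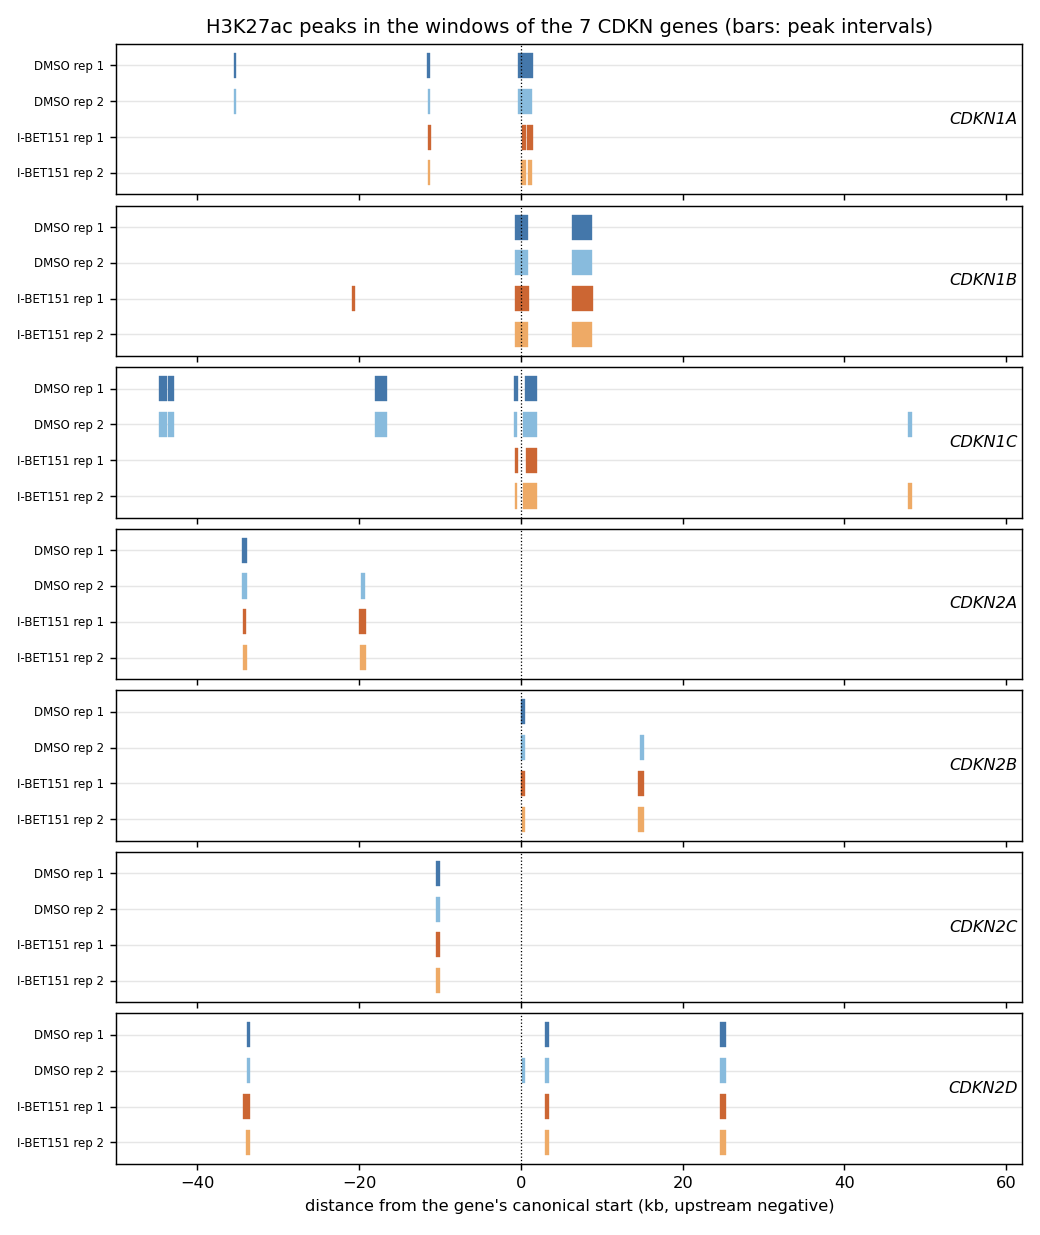
H3K27ac peaks in the window of each gene, as bars from peak start to peak end (x axis, kb from the start of the canonical transcript, upstream negative), with 1 row per library. Bars at −35.3 kb of CDKN1A and at −44.1, −43.1 and −16.7 kb of CDKN1C are present only in the DMSO rows, and the rows of CDKN2C are alike.

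CDKN1A (chr6:36676460-36687337, plus strand) had a distal peak, an upstream peak and a start domain. Distances are given from the start of the canonical transcript at 36678714, and every fold is the enrichment over local background at the summit as the peak caller gave it. The distal peak at chr6:36643255-36643535, in intergenic sequence 35.3 kb upstream, was 281 bp wide with a fold of 6.70 in DMSO replicate 1 and 259 bp with a fold of 10.1 in DMSO replicate 2, and it was not listed in either I-BET151 library. Summit reads were recovered from the listed fold and p, and for this peak they were 50 and 65 (6.28 and 6.61 per M, the number for each 1 M ChIP reads of the library). By −log10 p, 16.6 and 30.4% of peaks in these lists were weaker, so it was among the weaker peaks. CDKN1A had the nearest protein-coding start, and the nearest noncoding start was that of PANDAR, a p53-induced RNA encoded just upstream of CDKN1A, at 31732 bp.

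The upstream peak of CDKN1A, 11.4 kb before the start (chr6:36667149-36667561), was called in all 4 libraries. Its fold was 12.4 and 12.8 in DMSO, against 14.4 and 6.17 with I-BET151, the last with a local input level, the background by which the fold is divided, of 16.3 times the genome-wide level against 4.66 to 7.00 times in the others. Summit reads were 10.4 and 9.55 per M in DMSO, against 13.9 and 11.2 with I-BET151. Both treated libraries were thus above both controls in reads (10.0 ± 0.6 and 12.6 ± 1.9, exact permutation p = 0.33), whereas the folds overlapped. This element kept its listing while the distal peak did not.

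The start domain of CDKN1A (chr6:36678366-36680158) reached from 348 bp before the canonical start to 1444 bp after it, into the first intron. In DMSO it was a single peak of 1792 bp (fold 3.00) and 1763 bp (fold 7.20). In both I-BET151 libraries it was listed as 2 peaks, of 557 and 646 bp with folds of 3.23 and 4.02 in replicate 1, and of 577 and 554 bp with folds of 4.05 and 3.41 in replicate 2. The gap between them was 151 bp (chr6:36679362-36679512) in replicate 1 and 180 bp (chr6:36679355-36679534) in replicate 2. The treated peaks also began later, at 36678805 and 36678778, after the canonical start rather than before it. The part covered only in DMSO holds the start of DINOL (36678559), a noncoding RNA gene transcribed in the opposite direction. It lies at −155 bp from the canonical CDKN1A start. Whether the mark there belongs to CDKN1A, DINOL or both cannot be told from this position. The covered length in the domain was 1778 ± 21 bp in DMSO, against 1167 ± 51 bp with I-BET151 (SD, n = 2 each, exact permutation p = 0.33). Of all regions shared by the 4 libraries, 0.659% were a single peak in both DMSO libraries and at least 2 in both I-BET151 libraries. Of the 628 shared regions whose single DMSO peak was at least 1500 bp wide, this was so for 5.57%. This pattern was picked out after its values were seen, and it was the only one of its kind among the members.

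At the summit of the start domain, which lay within 46 bp in all libraries, CDKN1A had 241 and 266 reads in DMSO, against 179 and 180 with I-BET151. Per M ChIP reads these were 30.3 and 27.04 in DMSO, against 23.1 and 22.4 with I-BET151. Both treated libraries were lower (28.7 ± 2.3 and 22.7 ± 0.5, a difference of −5.92, exact permutation p = 0.33). The fold did not separate the groups, and the local input level at this summit ranged from 37.8 times the genome-wide level in DMSO replicate 2 to 97.9 times in DMSO replicate 1, the libraries with the highest and lowest fold.

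**Figure D3:**
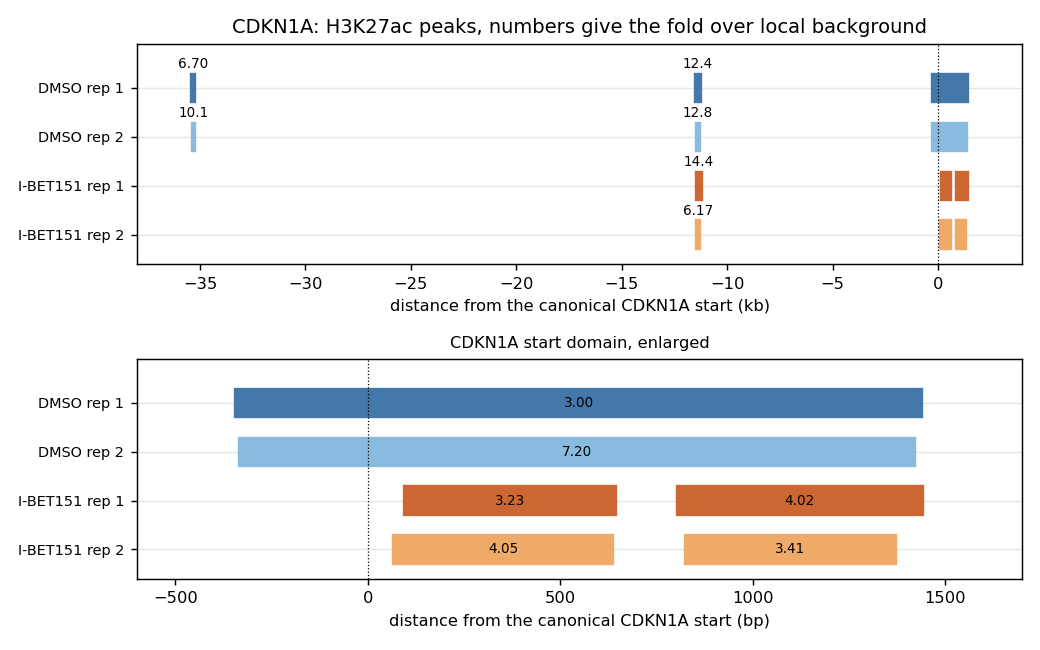
H3K27ac peaks at CDKN1A as bars, by library, against distance from the canonical start in kb (top) and, for the start domain, in bp (bottom), with the fold of each peak printed on or above it. The distal peak is in the DMSO rows only (folds 6.70 and 10.1), and the start domain is 1 bar in DMSO, against 2 bars with I-BET151.

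CDKN1B (chr12:12685498-12722369, plus strand) had the strongest start peak of the family. The peak spanned chr12:12716661-12718308 over the canonical start and was 1633 and 1584 bp wide in DMSO, against 1648 and 1599 bp with I-BET151. Its summit reads were 46.5 and 38.7 per M in DMSO, against 38.4 and 40.1 with I-BET151, so the groups overlapped (difference −3.36, exact permutation p = 0.67). The fold was 9.23 and 9.15 in DMSO, against 8.41 and 6.34 with I-BET151, lower in both treated libraries (9.19 ± 0.06 and 7.37 ± 1.46, exact permutation p = 0.33). The domain was not split, and by −log10 p the weaker share of the list was 95.6 and 92.8% in DMSO, against 82.5 and 70.9% in I-BET151.

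A broader peak followed downstream of CDKN1B at chr12:12723642-12726226, with its summit 7.66 kb from the start and 906 bp from a start of APOLD1, an endothelial immediate early gene. It was 2564 and 2551 bp wide in DMSO, against 2526 and 2497 bp with I-BET151, lower in both treated libraries by a difference of −46.0 bp (exact permutation p = 0.33). Its fold was 9.57 and 7.97 in DMSO, against 6.26 and 8.20 with I-BET151 and overlapped. A further peak at chr12:12696461-12696863, 427 bp from a start of the orphan receptor gene GPR19, was listed only in I-BET151 replicate 1 (403 bp, fold 8.70). This library was also the one with the largest covered length at CDKN1B.

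CDKN1C (chr11:2883213-2885775, minus strand) kept the peaks over its gene body and before its start. The difference in covered length came mostly from peaks nearest to starts of other genes. A peak over the gene body (chr11:2883800-2885570) was 1423 and 1771 bp wide in DMSO, against 1369 and 1697 bp with I-BET151. Its summit reads were 19.8 and 20.9 per M in DMSO, against 20.6 and 21.0 with I-BET151, within the spread between replicates (exact permutation p = 0.67). The fold of that peak was 3.07 and 3.08 in DMSO, against 6.78 and 3.36 with I-BET151. It was higher in both treated libraries (3.07 ± 0.01 and 5.07 ± 2.42, exact permutation p = 0.33). The local input level was 62.0 and 71.8 times the genome-wide level in DMSO, against 29.3 and 65.1 times with I-BET151. A narrower peak 545 bp before the start (chr11:2886141-2886606) was 404 and 392 bp wide in DMSO, against 428 and 358 bp with I-BET151, with folds of 4.20 and 4.40 and of 4.94 and 3.52. It had 14.9 and 17.9 reads per M in DMSO, against 17.4 and 19.4 with I-BET151, again with overlap (exact permutation p = 0.67).

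The peaks listed only in DMSO in this window lay at SLC22A18 and PHLDA2, which are imprinted in the same cluster as CDKN1C. The peak at the start of SLC22A18, a transporter-like gene, was at chr11:2902295-2903863, 16.7 kb upstream of CDKN1C. It was 1569 and 1448 bp wide with folds of 4.50 and 5.43 and 174 and 218 summit reads. PHLDA2, a growth-restraining gene of the placenta, had a peak within the gene at chr11:2928603-2929350 (748 and 720 bp, folds 2.73 and 3.96) and one before its start at chr11:2929519-2930520 (1002 and 977 bp, folds 4.42 and 3.37). These rested on 162 to 203 summit reads, and no peak was listed at these 3 places in either I-BET151 library. The distal CDKN1A peak rested on fewer reads, 50 and 65, but at a lower local input level. This level was 6.53 and 3.78 times the genome-wide level there, against 41.5 to 71.8 times at these 3 places. By −log10 p, 16.6 and 30.4% of the DMSO replicate 1 and 2 lists were weaker than the distal CDKN1A peak. The shares were 38.1 and 46.1% for the SLC22A18 peak. They were 12.6 and 27.2% for the peak within PHLDA2 and 36.8 and 23.02% for that before its start. A last peak, in an intron of the potassium channel gene KCNQ1 at chr11:2837416-2837971, was listed in replicate 2 of each group (folds 4.98 and 4.80) and in replicate 1 of neither.

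CDKN2A (chr9:21967752-21995301, minus strand) and CDKN2B (chr9:22002903-22009305, minus strand) shared 2 regions. No peak was listed at the p16 start, 21974857, in any library, and the nearest peak was 19.4 kb upstream of it. This peak, called the ARF peak here, lay at chr9:21994040-21994816, with its near edge 508 bp and its summit 1073 bp downstream of the ARF start whose promoter is printed above. It covered a coding exon of CDKN2A and an exon of the antisense RNA CDKN2B-AS1, with its summit 141 bp from an annotated CDKN2A start and 112 bp from one of CDKN2B-AS1. ChIP-seq does not tell which of these transcripts the mark belongs to. It was not listed in DMSO replicate 1. In DMSO replicate 2 it was 497 bp wide with a fold of 2.14, and 0.576% of that list was weaker. In I-BET151 it was 777 and 729 bp wide with folds of 4.77 and 4.77, and 41.9 and 37.1% of those lists were weaker. Summit reads were 11.5 per M in DMSO replicate 2 and 23.2 and 22.9 in I-BET151. The local input level was 56.7 times the genome-wide level in DMSO replicate 2 and 49.0 and 48.8 times in I-BET151. Because DMSO replicate 1 had no value, no mean was formed for DMSO, and the region was not counted as gained. DMSO replicate 2 was the deepest library by the estimate from the lists, and the part of depth in its weak listing was not tested.

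At the CDKN2B start the treated libraries were lower instead. Its peak (chr9:22008742-22009323), with a summit 13.7 kb upstream of the nearest annotated CDKN2A start and lying over an exon of CDKN2B and an intron of CDKN2B-AS1, was called in all 4 libraries. It was 525 and 582 bp wide in DMSO, against 424 and 463 bp with I-BET151, narrower in both treated libraries (554 ± 40 and 444 ± 28 bp, exact permutation p = 0.33). Summit reads were 23.2 and 24.0 per M in DMSO, against 18.2 and 21.2 with I-BET151, lower in both treated libraries (23.6 ± 0.5 and 19.7 ± 2.1, exact permutation p = 0.33). The fold, 3.41 and 5.87 in DMSO, against 2.96 and 4.41 with I-BET151, overlapped. The larger covered length at this locus in I-BET151 was thus at the ARF peak and not at the CDKN2B start.

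**Figure D4:**
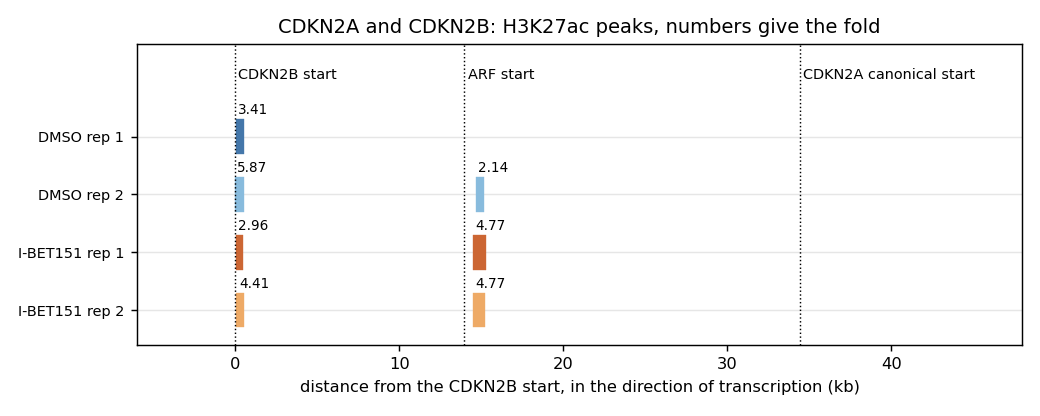
H3K27ac peaks at CDKN2A and CDKN2B by library, as bars against distance from the CDKN2B start in the direction of transcription (kb), with folds printed above and dotted lines at the starts of CDKN2B, ARF and p16 (labelled as the canonical CDKN2A start). The ARF bar is missing in DMSO replicate 1 and has a fold of 2.14 in DMSO replicate 2 and 4.77 in both I-BET151 libraries, and no bar stands at the p16 start.

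CDKN2C (chr1:50960745-50974634, plus strand) had a single region in its window (chr1:50959698-50960247), called in all 4 libraries. Its summit was 298 bp from the start of FAF1, a ubiquitin-binding adaptor gene transcribed in the opposite direction, at −776 bp from the most upstream CDKN2C start and −10.3 kb from the canonical one. It cannot be told from this position whether the mark belongs to FAF1, CDKN2C or both. The peak was 550 and 495 bp wide in DMSO, against 506 and 503 bp with I-BET151. Summit reads were 29.3 and 29.8 per M in DMSO, against 28.2 and 27.6 with I-BET151, lower in both treated libraries by a difference of −1.60 (29.5 ± 0.4 and 27.9 ± 0.4, exact permutation p = 0.33). The fold went the opposite way, 3.75 and 3.96 in DMSO, against 5.78 and 4.66 with I-BET151 (exact permutation p = 0.33). The local input level was 75.1 and 79.3 times the genome-wide level in DMSO, against 49.0 and 61.0 times with I-BET151.

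CDKN2D (chr19:10566460-10569059, minus strand) had a peak at its own start in DMSO replicate 2 only (chr19:10568518-10568868, 351 bp, fold 2.36). By −log10 p, 2.57% of that list was weaker. The other peaks of its window lay nearest to starts of other genes and were called in all 4 libraries. Whether the mark there also belongs to CDKN2D cannot be told from position. The nearest, 3.26 kb from the CDKN2D start, was at the start of KRI1, a ribosome assembly gene, with 30.3 and 27.04 reads per M in DMSO, against 27.7 and 31.0 with I-BET151. The peak at ATG4D, an autophagy protease gene, had 39.2 and 37.5 reads per M in DMSO, against 27.7 and 30.4 with I-BET151, lower in both treated libraries (exact permutation p = 0.33), although its fold of 6.01 and 6.09 in DMSO was below the 7.10 and 6.30 in I-BET151. The peak at SLC44A2, a choline transporter gene, was 400 and 350 bp wide in DMSO, against 856 and 493 bp with I-BET151. Among the regions of the members' windows called in all 4 libraries, it was the only one wider in both treated libraries (375 ± 35 and 675 ± 257 bp, exact permutation p = 0.33). Its folds were 2.85 and 3.05 in DMSO, against 5.30 and 6.35 with I-BET151. The covered length of CDKN2D thus summed peaks nearest to other genes, and these differed in both directions.

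Each start was also described by its peak of highest fold within 3 kb, which 5 members and 9130 protein-coding genes had in all 4 libraries. CDKN2A had one in 3 libraries and CDKN2D in 1. Fold was higher in both I-BET151 libraries for 1 of the 5 (CDKN2C), against 24.7% of genes, and lower for 1 (CDKN1B), against 16.0%. Width was higher for 0 of the 5, against 14.1%, and lower for 2 (CDKN1A and CDKN2B), against 32.1%. Reads per M were higher for 1 (CDKN1C), against 26.4%, and lower for 3 (CDKN1A, CDKN2B and CDKN2C), against 28.9%. These last 2 shares are over the 8912 genes whose reads were recovered in all 4 libraries. For CDKN1A and CDKN1C this choice took different peaks in different libraries. In I-BET151 replicate 1 it took the second CDKN1A peak (16.9 reads per M) and the gene body peak of CDKN1C, so the matched values above are the closer comparison, and in them CDKN1C overlapped between groups.

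With CDKN1A at the matched summit and CDKN1C at the peak before its start, the order of summit reads in DMSO was CDKN1B (42.6 ± 5.5 per M), CDKN2C (29.5 ± 0.4), CDKN1A (28.7 ± 2.3), CDKN2B (23.6 ± 0.5) and CDKN1C (16.4 ± 2.1), of which CDKN2C and CDKN1A overlapped. In I-BET151 it was CDKN1B (39.2 ± 1.2), CDKN2C (27.9 ± 0.4), CDKN1A (22.7 ± 0.5), CDKN2B (19.7 ± 2.1) and CDKN1C (18.4 ± 1.4), of which CDKN2B and CDKN1C overlapped. CDKN1B was thus first in both groups. The place of CDKN1C depended on the peak taken. Its gene body peak had 20.4 ± 0.8 per M in DMSO, against 20.8 ± 0.3 with I-BET151. By that peak the mean of CDKN1C was still last in DMSO but above that of CDKN2B in I-BET151, with overlap. The CDKN2C values are from the peak next to the FAF1 start, and whether that mark belongs to CDKN2C cannot be told.

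**Figure D5:**
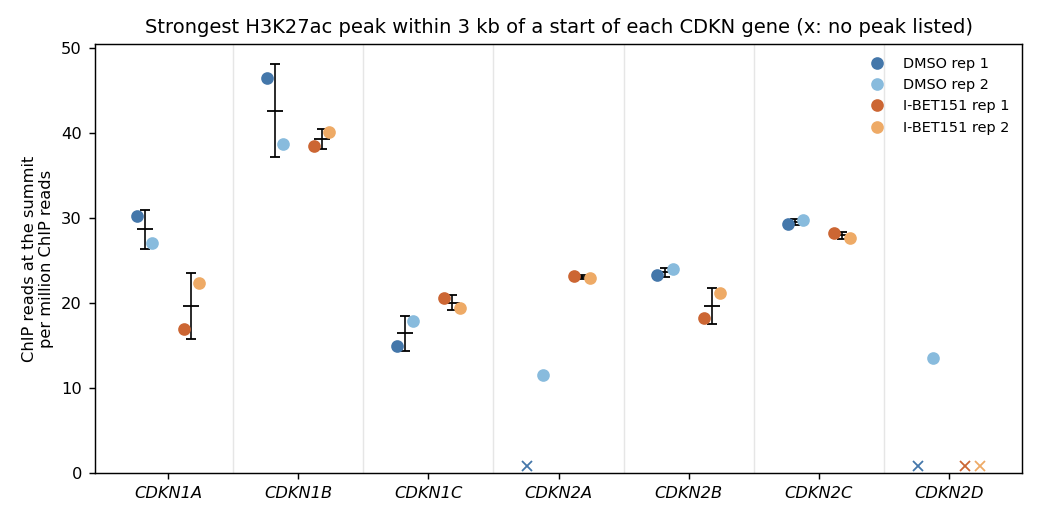
ChIP reads at the summit per M ChIP reads (y axis) of the peak of highest fold within 3 kb of a start of each gene (x axis), 1 point per library, with black bars for the group mean ± SD (n = 2) and a cross at the foot where no peak was listed. CDKN1B lies highest at 38.4 to 46.5, and the CDKN1A point of I-BET151 replicate 1 (16.9) is at the second of its 2 peaks.

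Genes whose covered length was most like that of each member over the 4 libraries were also listed, leaving out genes within 1 Mb, with likeness as the Euclidean distance in kb. Closest to CDKN1A were EGR1, an immediate early transcription factor gene, and its neighbour REEP2, which share their peaks (0.108 kb, with 2.46 and 2.38 kb in DMSO, against 1.55 and 1.53 kb with I-BET151). Closest to CDKN1B were TMEM253 and ZNF219 (0.0815 kb), and closest to CDKN1C were FUOM and PRAP1, at a much larger distance (0.752 kb). THEM4 (0.176 kb) was closest to CDKN2A and CDKN2B, CLEC17A (0.0184 kb) and COA6 (0.0269 kb) were closest to CDKN2C, and LEMD3 (0.155 kb) and PIGU (0.171 kb) to CDKN2D.

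Finally, the partners on which these inhibitors act were described by the same covered length. It sums all peaks in the gene body and 50 kb either side, including those at neighbouring genes. A difference given for a partner therefore belongs to its window, and whether it lay at the partner's own start was not tested. Of 11 CDK and cyclin genes 10 had a peak, and both I-BET151 libraries were lower for 7 of them and higher for 1, with a median difference of −0.382 kb. The 3 largest non-overlapping differences were at CDK6, a target of the INK4 proteins (3.03 and 3.00 kb in DMSO, against 2.35 and 1.86 kb with I-BET151), at CCNE2, a cyclin of CDK2 with no peak in DMSO, against 0.773 and 0.957 kb with I-BET151, and at CDK4 (2.81 ± 0.27 and 2.27 ± 0.32 kb). Of 8 RB and E2F genes 3 were higher, 2 lower and 3 overlapped, with a median of 0.102 kb. Here the largest were at E2F4 (3.33 ± 0.39 and 2.35 ± 0.32 kb) and E2F5 (2.14 ± 0.12 and 1.39 ± 0.49 kb), lower in I-BET151, and at RBL1, which encodes the RB relative p107 (1.10 ± 0.07 and 1.51 ± 0.07 kb), higher. Of 14 known regulators of CDKN genes 13 had a peak, of which 3 were higher, 4 lower and 6 overlapped, with a median of 0.0375 kb. SKP2, which targets p27 for degradation (2.71 ± 0.30 and 2.21 ± 0.07 kb), and its cofactor CKS1B (6.77 ± 0.23 and 6.34 ± 0.12 kb) were lower in I-BET151. BMI1, a Polycomb repressor of CDKN2A (3.38 ± 0.08 and 3.87 ± 0.04 kb), was higher. Each exact permutation p for the differences without overlap was 0.33 (n = 2 each), and the same background shares of 12.5 and 44.4% apply.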

How the data were processed

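H3K27ac ChIP-seq was analysed in 4 libraries, 2 with DMSO and 2 with I-BET151, grouped by GEO's labels. Per the study's methods, the authors aligned reads to hg38 with Bowtie2 (2.2.5), removed duplicates and called peaks with MACS2 (2.1.2). Each library has its own list. As deposited, each peak has a fold enrichment of ChIP over local background at its summit, −log10 p-values and −log10 q-values, and an integer score that was not used. The 4 inputs were not analysed here. Between 79.8 and 84.2% of summits lay within 3 kb of a GENCODE 44 start, and 10.9 to 11.6% after a shift of 1 Mb, so hg38 coordinates were used.

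Covered length was summed over each gene body and 50 kb either side, and peaks sharing at least 1 bp were merged into regions across libraries. ChIP reads at a summit were recovered as the whole number that, with the local input level, gives both the listed fold and −log10 p, with a tolerance of 0.02. This worked for 98.8 to 99.2% of peaks per library and for 60 of the 61 members' peaks. The scripts (Python 3.11.15, numpy 2.4.6, scipy 1.17.1) were tested on simulated data first. The depth was not counted but estimated from the lists, at 7.76 to 9.84 M ChIP reads and 2.67 to 3.04 M input reads. Input reads were the fitted genome-wide input level times a genome size of 2.7e+09, divided by the smallest peak width of the list. ChIP reads were the input reads divided by the fitted scaling of ChIP to input. Reads per M were scaled to this estimated ChIP depth only.

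The text names all 7 members, genes with a start within 3 kb of a summit in their windows or the nearest protein-coding start, the 2 most like genes of each member, and from each partner list the 3 largest differences without overlap. Some results under these rules are not reported here. The members and lists were chosen with earlier results of these data known. Promoter sequences are from RefSeq (GRCh38.p14) and other sequences from hg38. Alternatives were other windows, overlaps, thresholds, peak choices and depth scalings, each replicate left out, and the replicate number as a block.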

Additional observations from a re-analysis of the deposited data

How the results depend on the processing

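Of 224 recomputed values for 27 results, 17 reversed, 9 others moved past the limit set for them, and 198 kept their direction, though not always their size, and none could pass the test. With a window of 10 kb, CDKN1C was −0.069 kb in place of −3.32 kb and no longer below DMSO without overlap, CDKN2D changed to −0.135 kb, and 1 member was lower. Over the gene body alone, CDKN1C was −0.064 kb, CDKN2B was −0.101 kb, CDKN2C 0 kb and CDKN2D −0.176 kb, and 1 member was higher. The number of gained regions was 1 with −log10 q of at least 5 and 1 with equal numbers of top-ranked peaks, and under both CDKN2A and CDKN2B were at 0.643 kb and CDKN2D at 0.302 kb. The weak ARF peak of DMSO replicate 2 has a −log10 q of 2.25, under that limit. By −log10 p the CDKN1A reads difference at the own start was −5.92 per M, and the CDKN1C width difference 1135 bp. With starts within 1 kb, CDKN1C changed by −0.0703 in fold and −5 bp in width. The cause of the other changes was not tested.

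Leaving out 1 library at a time, covered length ranged from −0.945 to −0.797 kb for CDKN1A, −3.71 to −2.93 kb for CDKN1C, 0.118 to 0.672 kb for CDKN2A and CDKN2B, −0.070 (without I-BET151 replicate 1) to 0.411 kb for CDKN1B, −0.0455 to 0.0095 kb (without DMSO replicate 1) for CDKN2C, and −0.146 (without I-BET151 replicate 1; −0.0175 without DMSO replicate 1) to 0.399 kb for CDKN2D. Between 2 and 4 members were higher (4 without I-BET151 replicate 2) and 2 to 4 lower (4 without I-BET151 replicate 1). Gained regions numbered 0 to 1 (1 without DMSO replicate 2 or I-BET151 replicate 2), lost regions 4 to 5 and shared ones 11 to 12. At the own start, fold ranged from −3.17 to 1.03 (without DMSO replicate 2) for CDKN1A, −0.782 (without I-BET151 replicate 1) to 2.49 for CDKN1C and −2.18 to 0.274 (without DMSO replicate 2) for CDKN2B. Width ranged from −9.5 (without DMSO replicate 2 or I-BET151 replicate 1) to 39.5 bp for CDKN1B, −40 (without I-BET151 replicate 1) to 971 bp for CDKN1C and −45.5 to 9.5 bp (without DMSO replicate 1) for CDKN2C. Reads per M ranged from −7.24 to 0.516 (without DMSO replicate 1) for CDKN1B.

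With the replicate number as a replicate block, the mean differences are the same by construction, as for CDKN1A at −0.871 kb, and no call changed. The correlation of replicate deviations was 0.110 over 15184 genes, with only 2 pairs, which cannot show whether the numbers pair the samples, and the labels do not say. Depth limits the weakest peaks, and an unlisted peak has no value.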
